A study of Mus musculus with 20 samples.

Results

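The RNA of 9 lysosomal cathepsins, the proteases Ctsa, Ctsb, Ctsc, Ctsd, Ctsh, Ctsk, Ctsl, Ctss and Ctsz, was followed through inflamed skin and inflamed pancreas of the mouse. They were 9 of the 55471 genes in the count table, matched by Ensembl identifier, and all 9 were found. The genes were chosen by a list drawn up after their levels and responses in these same libraries had been seen, so their changes are given as a description, and the fit over all genes is quoted only for whether a gene passed its threshold. The study asked which signals rise in chronic inflammation of these epithelia and induce the alarmin IL-33.

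All mice were C57BL/6 wild type (WT). In the skin model, male and female mice aged 4 to 6 weeks were sensitized on the abdomen with DNFB (2,4-dinitro-1-fluorobenzene, a contact allergen) and then received 0.25% DNFB in acetone with olive oil on the back for 22 days, 3 times a week, while the Acetone group received the vehicle. In the pancreas model, the Caerulein group received 50 µg/kg caerulein, a peptide that overstimulates the enzyme-secreting acinar cells, by hourly intraperitoneal injection, 6 per day on 3 days per week for 3 weeks, and the PBS group received saline. The sources give no age or sex for the pancreas mice. Each group held 5 libraries, made from isolated epidermis of back skin or from whole pancreas by Smart-Seq2, which amplifies full-length transcripts without molecular identifiers.

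Cathepsins are made as inactive precursors, sorted to the lysosome largely by the mannose 6-phosphate route, and activated there at low pH. Most belong to the papain-like cysteine proteases. Among these Ctsb, Ctsl, Ctss and Ctsk cut within proteins, Ctsc and Ctsh trim the amino end, and Ctsz trims the carboxyl end. Ctsd is an aspartic protease and Ctsa a serine carboxypeptidase. Keratinocytes use cathepsins in cornification, antigen-presenting cells use Ctss and Ctsl to process the class II invariant chain, and acinar cells carry Ctsb, which can activate trypsinogen.

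Lysosomal genes are often regulated through the E-box CACGTG, which the TFEB family and other factors bind, and the promoter windows of the cathepsins were searched for it on both strands. RefSeq windows (GRCm38.p6, from 250 bases before to 50 after a transcription start) were at hand for 7 of the 9 genes, with 2 starts for Ctsa and none for Ctsb and Ctsh. The E-box was present at the second Ctsa start, where its first base lay 12 bases before and 6 bases after the start, at Ctsd 245 and 98 bases before the start, and at Ctsl 236 bases before the start. Of all 32851 windows, 7.15% held it. The windows of Ctsc, Ctsk, Ctss and Ctsz did not. The Ctss window held instead an interferon-stimulated response element, searched on both strands as GAAA, any 2 bases and GAAA again, 21 bases before the start, a motif chosen after the window had been read and present in 3.44% of all windows. The stretches are shown with the matched letters in capitals, and the motifs were not compared with the RNA values below. A match is a description of the letters and not of binding, and the starts of the second Ctsa window and of the Ctsd and Ctsl windows lie inside the GENCODE genes.
Ctsa, chr2:164833751-164833776, plus strand: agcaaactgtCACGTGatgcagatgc
Ctsa, chr2:164833768-164833793, plus strand: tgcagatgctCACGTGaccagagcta
Ctsd, chr7:142388057-142388077, minus strand: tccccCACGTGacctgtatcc
Ctsd, chr7:142387910-142387935, minus strand: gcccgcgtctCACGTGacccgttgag
Ctsl, chr13:64370741-64370766, minus strand: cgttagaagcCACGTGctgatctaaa
Ctss, chr3:95526755-95526784, plus strand: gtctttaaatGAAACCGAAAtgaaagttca

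The depth behind these genes was small and uneven. Levels are given as normalised CPM, counts per 1e6 of a library total scaled by the trimmed mean of M values (TMM) within a tissue. Library totals ran from 791491 to 2232039 counts, but 37.4% to 93.0% of them fell on 3 satellite-like predicted genes, and 86345 to 1082423 counts were left. The 9 cathepsins together had between 28 and 4376 counts per library in Acetone, 199 to 2595 in DNFB, 14 to 273 in PBS and 76 to 4113 in Caerulein. Acetone 11 and Acetone 12, named like the other libraries by their label number, held 1082423 and 948955 of the remaining counts, against 106497 to 161203 in Acetone 1, 2 and 3. Their satellite-like shares were 37.4% and 45.4%, against 81.0% to 92.4% in Acetone 1, 2 and 3. Their totals were 1728182 and 1738384 counts, against 846715 to 1403122. The tissue labels held: the 10 keratinocyte markers summed to a median of 1727 CPM in Acetone and 8.52 in PBS, and the 12 acinar markers to 8.001 and 15961. The lowest keratinocyte sum in epidermis was 221 CPM, in DNFB 14, and the highest in pancreas 19.4. The highest acinar sums in epidermis were 48.3 CPM in Acetone 1 and 41.9 in DNFB 14, and the lowest in pancreas was 835. These sums do not measure purity. A gene without a count in PBS 17 could still make up 0.000254% of that library total, the share that 3 counts allow. The total includes the satellite-like genes, and on the normalised scale 3 counts in PBS 17 were 4.26 CPM. Both values cover counting error only.

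In DNFB-treated epidermis none of the cathepsins passed the test across all genes. Ctsl had the largest value, with a log2 fold change of 1.61 (SE 0.63), Ctsc, Ctsd, Ctss and Ctsz had values between 0.10 and 0.42, and Ctsa, Ctsb and Ctsh had values between -0.70 and -0.26. These values rested on which acetone libraries were counted. With Acetone 11 and 12 left out, 8 of the 9 values were above 0, and within label numbers 11 to 20 only that of Ctsl was.

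Ctsl (chr13:64359337-64370890, minus strand) encodes an endopeptidase that keratinocytes also use in hair follicle cycling. Its normalised CPM was 12.1, 13.3, 26.7, 44.7 and 43.8 in Acetone 1, 2, 3, 11 and 12. It was 39.1, 60.6, 62.0, 219 and 63.8 in DNFB 4, 5, 6, 13 and 14. The group means were 28.1 ± 15.8 in Acetone and 89.0 ± 73.6 in DNFB (SD, n = 5). DNFB 4 lay below Acetone 11 and 12, and the other 4 DNFB libraries lay above every acetone library. The log2 fold change was 1.72 within label numbers 1 to 10, 1.66 within label numbers 11 to 20 and 2.41 without Acetone 11 and 12. It ran from 0.93, without DNFB 13, to 1.85 when each library was left out in turn.

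Ctsb (chr14:63122462-63145923, plus strand), the most abundant cathepsin by counts in epidermis, had a value whose sign depended on the libraries. Its normalised CPM was 39.3, 120, 31.7, 330 and 391.6 in Acetone 1, 2, 3, 11 and 12. In DNFB 4, 5, 6, 13 and 14 it was 109, 86.1, 183, 297 and 94.2. The DNFB libraries thus lay above Acetone 1 and 3 and below Acetone 11 and 12, and Acetone 2 lay within their range. The log2 fold change was -0.26 (SE 0.75) over all libraries, 1.15 within label numbers 1 to 10 and -0.90 within label numbers 11 to 20. For Ctsd (chr7:142375911-142388038, minus strand), the aspartic protease, normalised CPM was 6.04, 37.3, 11.7, 191 and 210 in the acetone libraries and 108, 46.2, 158, 232 and 59.7 in the DNFB libraries, in the same order. Its log2 fold change of 0.38 (SE 0.84) became 2.72 within label numbers 1 to 10 and -0.47 within 11 to 20. Every value for Ctsd in DNFB lay above those of Acetone 1, 2 and 3, and only that of DNFB 13 lay above all 5.

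**Figure D1:**
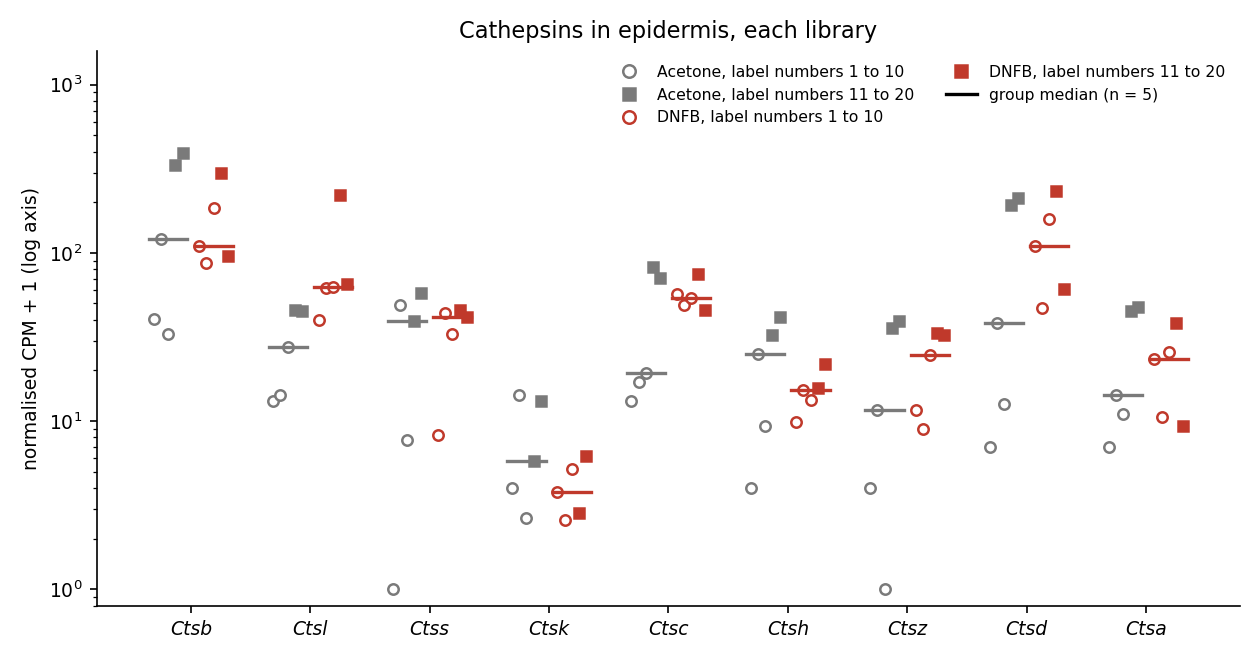
Normalised CPM plus 1 (log axis) of each cathepsin in the 5 Acetone and 5 DNFB libraries; circles are label numbers 1 to 10, squares 11 to 20, and lines the group medians. For Ctsa, Ctsb, Ctsh and Ctsz both grey squares, Acetone 11 and 12, sit above every DNFB point, whereas for Ctsl 4 of the 5 DNFB libraries lie above every acetone library.

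Ctsc (dipeptidyl peptidase I), which activates the serine proteases of mast cell and neutrophil granules, had 12.1 to 81.5 CPM in Acetone and the range of 45 to 74.2 in DNFB, with a log2 fold change of 0.42 (SE 0.59). Ctsz, a carboxypeptidase, had 0 to 38.5 CPM in Acetone and 7.97 to 32.3 in DNFB. Ctsa, which also shields lysosomal neuraminidase and beta-galactosidase, had 6.04 to 46.3 CPM in Acetone and 8.37 to 37.1 in DNFB. All of these ranges overlapped. Ctsh, an aminopeptidase, had a median of 24.0 CPM in Acetone and 14.3 in DNFB and a log2 fold change of -0.70 (SE 0.54). Ctss, the endopeptidase of antigen-presenting cells, had 0 to 56.7 CPM in Acetone and 7.26 to 44.8 in DNFB. Ctsk, the collagen-degrading protease of osteoclasts and fibroblasts, did not pass the filter on low counts, with 81 counts over the acetone and 28 over the DNFB libraries.

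Counted over the whole list, 8 of the 9 cathepsins passed the filter in skin and 0 passed the edgeR test at an adjusted p of 0.05, while 0.0275% of the 7265 genes tested were called higher. At an unadjusted p under 0.05, 1 cathepsin (Ctsl) was counted as higher, as were 2.95% of all genes tested, and DESeq2 called 0 cathepsins and 0.164% of its genes higher. No cathepsin had every DNFB library above every acetone library, against 0.564% of the genes tested. The median log2 fold change was 0.10 over the 9 members and 0.02 over all genes tested. With library totals alone the values of Ctsc, Ctsd, Ctss and Ctsz were below 0. The median was 1.15 over the 9 members within label numbers 1 to 10 and -0.47 within 11 to 20. The labels do not say what the 2 ranges of numbers stand for.

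In caerulein-treated pancreas Ctsl and Ctsz rose, by a log2 fold change of 2.69 (SE 0.67) and 3.44 (SE 0.92). Ctsb and Ctsd passed the filter but not the test, with 2.17 (SE 0.90) and 1.23 (SE 0.84). Ctss and Ctsh, with 9 and 6 counts in all 5 PBS libraries together, had fitted values of 3.99 and 3.29 and were not tested. Ctsa and Ctsc had values of 1.655 and 1.597 without a test, and Ctsk was close to undetected in both groups. In whole tissue, more RNA per cell and more cells of a type cannot be told apart. The satellite-like share of counts also differed, with 83.9% to 93.0% in PBS and 65.9% to 73.1% in Caerulein 10, 19 and 20. It was 91.9% and 88.3% in Caerulein 9 and 18. Their cathepsin sums, 86.7 and 96.9 CPM, were the lowest of the group. PBS 7 and 8 had shares of 84.1% and 83.9% beside cathepsin sums of 37.5 and 231 CPM. The part of this share in the cathepsin values was not tested.

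Ctsl had normalised CPM of 7.49, 9.31, 1.94, 7.04 and 4.26 in PBS 7, 8, 15, 16 and 17. In Caerulein 9, 10, 18, 19 and 20 it had 15.97, 82.6, 16.7, 30.7 and 53.7. Every caerulein library lay above every PBS library, and Ctsl was the only cathepsin of which this held. Its edgeR adjusted p over the 946 genes tested was below the threshold. The call was lost, at log2 fold changes of 2.14 to 2.54, without PBS 7, 15, 16 or 17 or without Caerulein 10 or 20, and the direction held in each case. Summed over libraries, 885 counts in Caerulein and 26 in PBS gave a ratio of 7.84 per scaled count (95% exact conditional interval 5.31 to 12.1, counting error only).

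Ctsz (chr2:174427493-174439039, minus strand) had 1, 10, 0, 0 and 0 counts in PBS 7, 8, 15, 16 and 17. The counts in Caerulein 9, 10, 18, 19 and 20 were 4, 342, 13, 129 and 101. On the normalised scale PBS 8 had 8.46 CPM and Caerulein 9 had 4.56, so the groups overlapped through these libraries. The pooled ratio was 12.3 (95% interval 6.84 to 24.8). The call was lost, at log2 fold changes of 2.77 to 3.38, without PBS 7, 15, 16 or 17 or without Caerulein 10 or 19. Without PBS 8 the value was 5.87, against PBS libraries with 1 count among them.

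**Figure D2:**
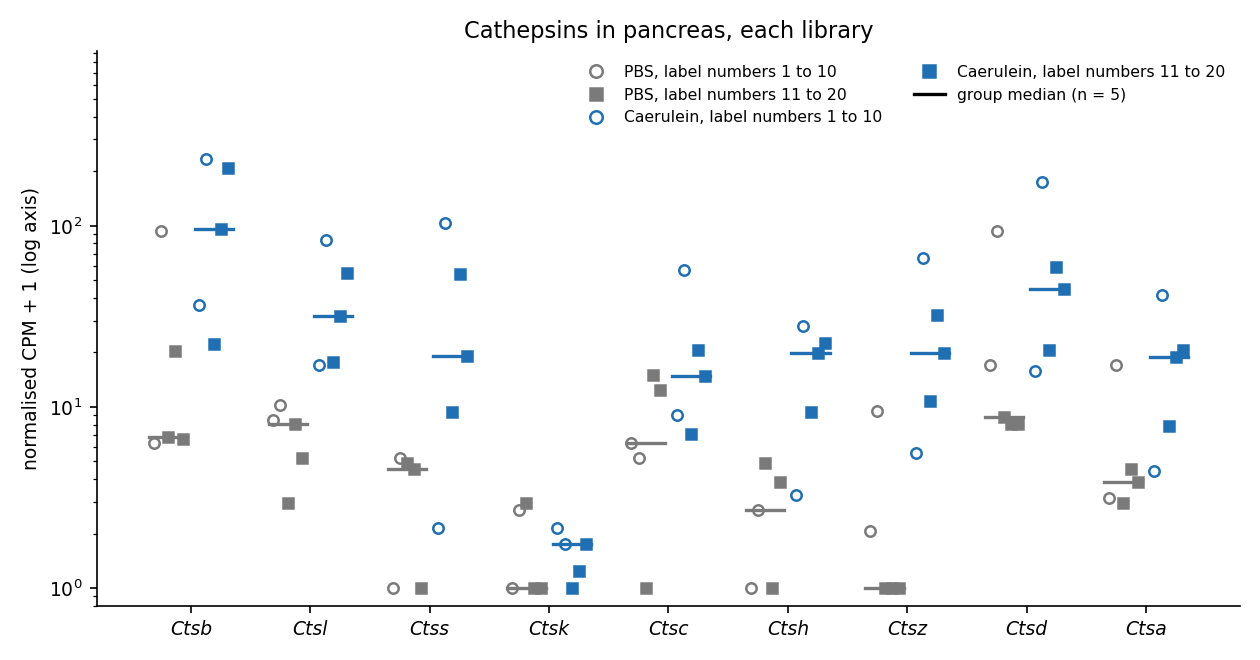
Normalised CPM plus 1 (log axis) of each cathepsin in the 5 PBS and 5 Caerulein libraries, drawn as for the epidermis. Only for Ctsl do the points of the groups separate; for Ctsb and Ctsd the highest grey circle is PBS 8, at 93.1 and 92.2 CPM.

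Ctss (chr3:95526786-95556403, plus strand) had 0, 5, 2, 2 and 0 counts in the PBS libraries in label order. In the caerulein libraries the counts were 1, 540, 11, 221 and 97. Caerulein 9 lay within the PBS range and the other 4 above it, and the pooled ratio was 22.3 (95% interval 11.7 to 48.8). Ctsh (chr9:90054152-90076089, plus strand) had 0, 2, 2, 0 and 2 counts in PBS and 2, 142, 11, 79 and 115 in Caerulein. Its pooled ratio was 13.4 (95% interval 6.09 to 36.8). DESeq2, which kept more low-count genes, tested 8 cathepsins and called Ctsh, Ctsl, Ctss and Ctsz, in a fit that called 7.44% of all its genes higher.

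Ctsk (chr3:95499256-95509362, plus strand) is the next gene upstream of Ctss on the same strand, 17423 bases away with no other gene of the table between them. It had 3 counts over all PBS libraries and 10 over all caerulein libraries, a pooled ratio of 0.77 with a 95% interval of 0.20 to 4.34 that covers counting error only and not the spread between libraries. Of the 870 Ctss counts in Caerulein, 540 came from Caerulein 10, and the responses of the neighbours were not tested against each other. In epidermis Ctsk had 81 and Ctss 457 counts over the acetone libraries.

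Ctsb, which can activate trypsinogen inside acinar cells, had normalised CPM of 5.35, 93.1, 5.82, 19.4 and 5.68 in the PBS libraries. In the caerulein libraries it had 35.4, 234, 21.2, 95.6 and 207. Ctsd had 16.1, 92.2, 7.75, 7.04 and 7.10 in PBS and 14.8, 174, 19.7, 57.9 and 43.6 in Caerulein. For both genes PBS 8 lay among the caerulein libraries and the other 4 PBS libraries below most of them. Without PBS 8 both passed the test, at log2 fold changes of 3.68 for Ctsb and 2.51 for Ctsd, in a fit that called 14.4% of all genes higher. Ctsa (chr2:164832873-164841032, plus strand) followed the same pattern, with 16.1 CPM in PBS 8, 1.94 to 3.52 in the other PBS libraries and 3.42 to 40.5 in Caerulein. Ctsc (chr7:88278085-88310888, plus strand) did not, since PBS 8 had 4.23 CPM and PBS 16 had the highest value of its group, 14.1, against 6.06 to 56.0 in Caerulein.

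Of the 9 cathepsins, 4 passed the filter in pancreas and 2 were called higher, in a fit that called 8.35% of the 946 genes tested higher. The filter keeps a gene that is high in either group, so the 4 are no sample of the 9. The groups of 1 cathepsin did not overlap, against 2.64% of the genes tested. The median log2 fold change was 2.17 over the 9 members, 2.41 within label numbers 1 to 10 and 3.001 within 11 to 20, and 0.06 over all genes tested. Ctsk alone had a negative value, -0.36, which turned to 1.18 with library totals alone, 0.06 with DESeq2, 0.27 without a filter and 0.44 without PBS 8.

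Which cathepsins passed depended on the settings. Within label numbers 1 to 10 none passed, at 2.41 for Ctsl and 2.73 for Ctsz, and 0.072% of all genes were called higher. In 1 fit of all 20 libraries Ctsl (2.48) and Ctsz (3.21) did not pass and Ctsh and Ctss did, with 1.3% of all genes called higher. With the satellite-like genes removed Ctsl (2.46) passed and Ctsz (3.27) did not, with 6.3% called higher. Other settings called more cathepsins, and mostly more genes. All 6 cathepsins tested within label numbers 11 to 20 passed, where 21.5% of all genes were called higher. Without Caerulein 9 and 18, 5 of 8 passed (17.9% of all genes), without a filter 6 of 9 (3.18%), and with library totals alone 3 of 4 (54%). The values of the genes not called moved with single libraries. Leaving out each library in turn gave 1.14 (without Caerulein 10) to 2.68 (without PBS 8) for Ctsa, and 0.83 (without Caerulein 10) to 1.72 for Ctsc. It gave 3.22 (without Caerulein 10) to 4.45 (without PBS 8) for Ctss, and 2.68 (without PBS 7) to 3.41 for Ctsh. For Ctsd the range was 0.38 (without Caerulein 10) to 2.51 and for Ctsb 1.68 to 3.68, the upper ends without PBS 8.

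**Figure D3:**
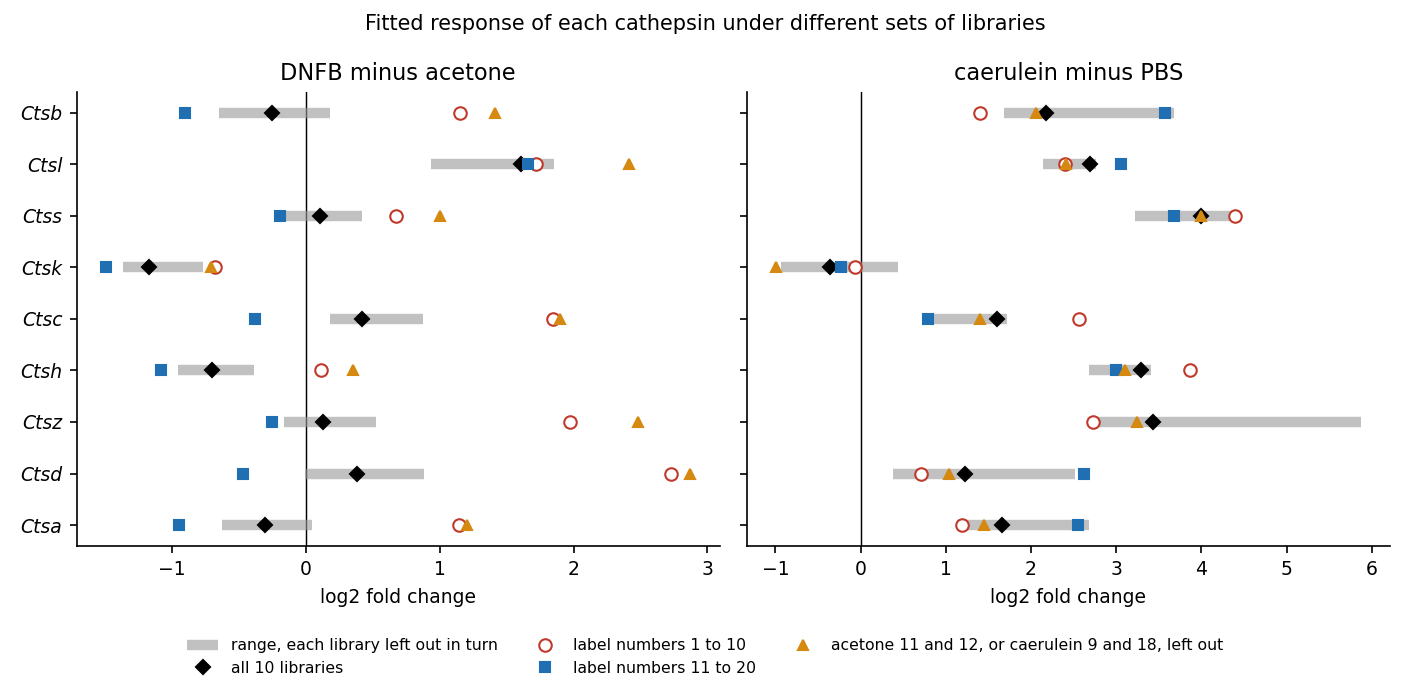
Log2 fold change of each cathepsin in epidermis (left) and pancreas (right) over all 10 libraries of a tissue, within each range of label numbers, and with named libraries left out; grey bars span the fits that leave out each library in turn. In epidermis the values of label numbers 11 to 20 lie below 0 for every gene but Ctsl, and in pancreas all values but those of Ctsk lie above 0; the value of Ctsz in label numbers 11 to 20 of pancreas is not drawn because its 3 PBS libraries hold 0 counts.

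The difference between the responses of the tissues, DNFB minus Acetone less Caerulein minus PBS, was tested in 1 fit of the 20 libraries. All 9 values were negative, with a median of -1.62 against -0.37 over all genes tested. The median of the 9 was -0.63 within label numbers 1 to 10, where none passed, and -3.95 within 11 to 20, where 6 passed. In the latter the median of all genes was itself -1.15, and 9.57% of all genes were called lower. The most negative were Ctsh at -3.77 (SE 0.99), Ctss at -3.68 (SE 1.29) and Ctsz at -2.94 (SE 1.24), and the value closest to 0 was that of Ctsd, -0.42 (SE 1.24). None of the 8 tested passed the edgeR test, against 0.264% of the 8336 genes tested, while 3 cathepsins had an unadjusted p under 0.05 and a negative value, as had 12.2% of all genes tested. On simulated data this fit recovered only 27 of the 147 changed genes tested, each with a log2 change of 3. A gene that did not pass is therefore no sign of equal responses. DESeq2 called Ctsh and Ctss, with 3.73% of its genes called lower. Ctsh, Ctss and Ctsz passed in edgeR without a filter on low counts, where 933 of 45075 genes were called lower. The same 3 passed with Caerulein 9 and 18 left out, a setting chosen after seeing the data, where 759 of 11251 genes were called lower. Ctsh passed in edgeR without Acetone 1 or 3, Caerulein 9 or 18 or PBS 8, and Ctsz without PBS 8, at -5.84. Those fits called 0.61%, 3.08%, 2.11%, 1.26% and 1.68% of all genes lower, in that order. For Ctsd and Ctsc the sign turned without Acetone 11 and 12, to 1.82 and 0.22. Ctsl had the value -0.80 (SE 0.90), so the difference between its responses was smaller than its SE.

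Levels of different genes were compared as CPM per kilobase of the principal transcript, with all 20 libraries scaled together. By group medians, Ctss (17), Ctsb (14.3) and Ctsd (9.92) led in Acetone, Ctsd (32.7), Ctsl (20.4) and Ctss (18.99) in DNFB, Ctsd (5.59), Ctsc (4.86) and Ctsl (4.51) in PBS, and Ctsb (33.8), Ctsd (27.9) and Ctsl (26.2) in Caerulein. The lead of Ctss in Acetone held for the median only. By group means Ctsd (24.9) and Ctsb (22.3) led in Acetone, and Ctss had 12.7. Among the acetone libraries, Ctss lay above both Ctsb and Ctsd only in Acetone 2, with 18 Ctss counts. In Acetone 11 and 12, Ctsd had 53.8 and 55.6, Ctsb 41.7 and 46.4, and Ctss at most 23.5. In the orders by medians, Ctsa stood 7th or 8th and Ctsk 8th or 9th in every group. Neighbours in these orders overlapped in their ranges, except Ctsa and Ctsk in Caerulein, where Ctsa had a median of 7.34 and Ctsk of 0.67.

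Composition within a library needs no scaling. Counted per kilobase among the 9 cathepsins, in the 13 libraries with at least 100 cathepsin counts, Ctsl made up 5.36% to 7.503% in 3 acetone libraries and 13.9% to 28.6% in 5 DNFB libraries. Ctsb made up 20.1% to 23.9% in the same acetone libraries and 11.8% to 17.3% in DNFB. These ranges did not overlap, but in Acetone 1 and 3, with 28 and 69 cathepsin counts, Ctsl made up 20.6% and 28.8%. Accordingly the raw counts of Ctsl per count of Ctsb were 0.14 and 0.11 in Acetone 11 and 12, 0.11 in Acetone 2, and 0.34 to 0.74 in the DNFB libraries, whereas Acetone 1 had 0.31 (0.073 to 0.996) and Acetone 3 had 0.84 (0.41 to 1.73; 95% exact intervals). In pancreas, with the libraries under 100 cathepsin counts included, Ctsz made up 9.19% to 15.3% in the 5 caerulein libraries and at most 6.91% in any PBS library. The libraries under 100 were PBS 7, 15, 16 and 17, with 35, 14, 31 and 24 cathepsin counts, and Caerulein 9 with 76. Ctsz had 0 counts in PBS 15, 16 and 17, so these shares rest on few counts. Ctsd made up 14.4% to 23.8% in Caerulein and 16.4% to 51.0% in PBS (median 28.2%), so the groups overlapped. The highest share was that of PBS 8, the PBS library with over 100 cathepsin counts.

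**Figure D4:**
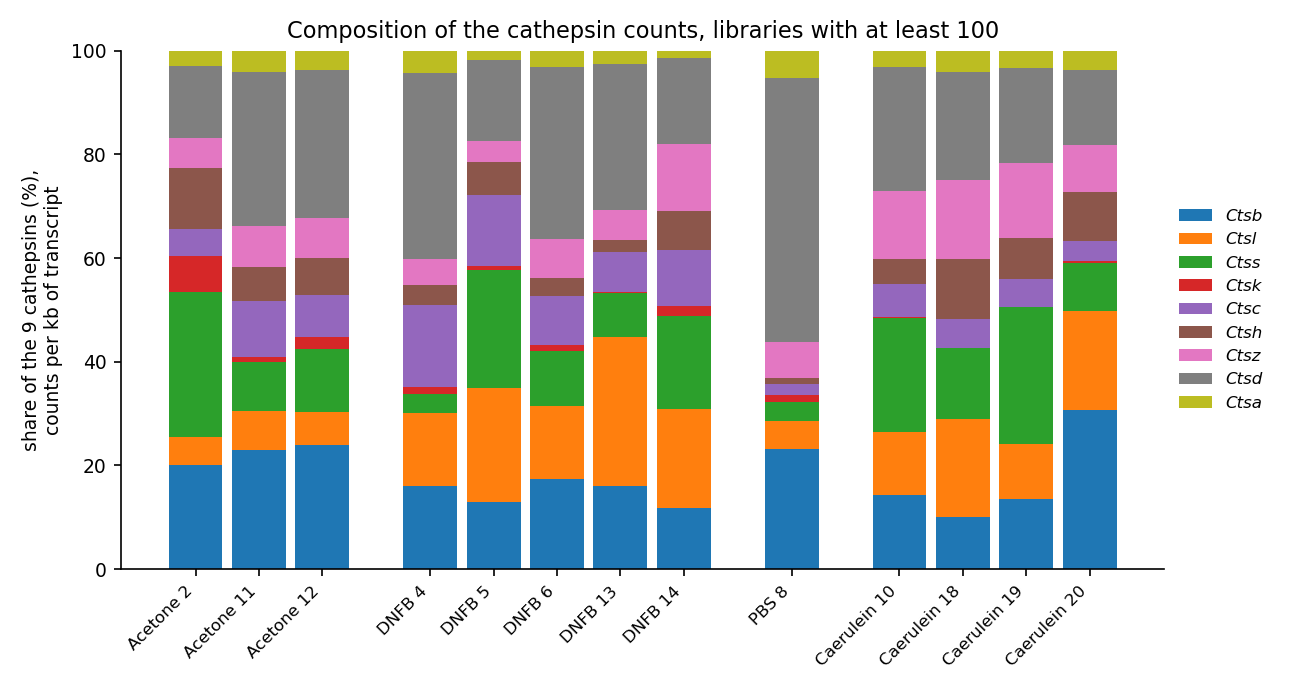
Share of each cathepsin, in percent of the summed counts per kb of the 9, in the 13 libraries with at least 100 cathepsin counts. The orange part, Ctsl, is thin in the 3 acetone libraries (5.36% to 7.503%) and wide in the 5 DNFB libraries (13.9% to 28.6%), and the grey part, Ctsd, takes 51.0% of PBS 8.

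Markers of macrophages were measured beside the cathepsins. The 15 macrophage markers summed to 724 and 1053 CPM in Acetone 11 and 12, 45.1 to 131 in Acetone 1, 2 and 3, and 57.5 to 546 in DNFB. In pancreas they summed to 18.2 to 194 CPM in PBS, with PBS 8 the highest, and 108 to 1968 in Caerulein. All 15 had counts in every group. Lyz2, the macrophage lysozyme, rose in pancreas from 16.1 ± 26.5 to 403 ± 449 CPM (SD, n = 5; log2 fold change 4.596). It was the only call among the 4 macrophage markers tested there. DNFB 4 had 57.5 CPM of macrophage markers beside 364 CPM of cathepsins, and Acetone 1 had 51.4 beside 84.6, the latter from 28 cathepsin counts. Acetone 11 and 12, the highest in markers, had 801 and 909 CPM of cathepsins. Within DNFB the orders differed, since DNFB 14 had the most markers (546 CPM) beside 369 CPM of cathepsins and DNFB 13 had 273 beside 953. Caerulein 10 was the highest of its group in both, with 1968 CPM of markers and 783 of cathepsins. Caerulein 9 and 18 were the lowest in both, with 108 and 194 CPM of markers beside 86.7 and 96.9 of cathepsins. Only Caerulein 19 and 20 changed places, where the markers summed to 995 and 290 CPM and the cathepsins to 325 and 398. The part of these cells in the cathepsin values was not tested.

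**Figure D5:**
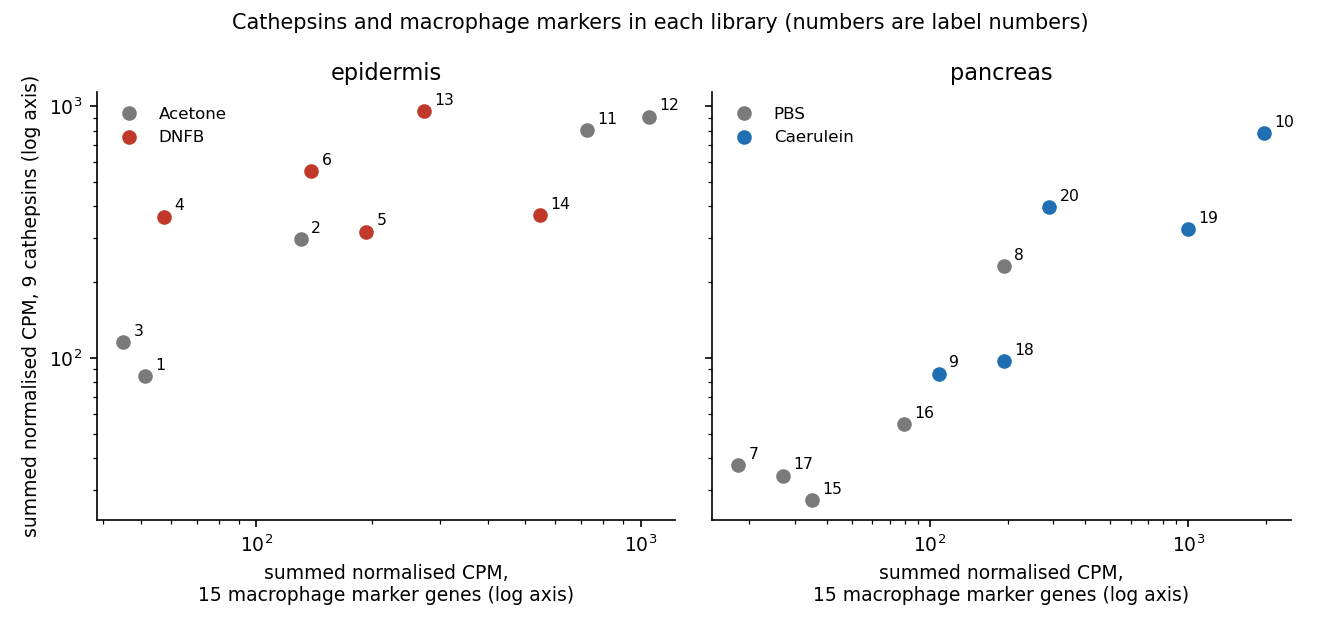
Summed normalised CPM of the 9 cathepsins against that of 15 macrophage markers (log axes), with label numbers beside the points. In pancreas, PBS 8 (194 and 231 CPM) stands among the caerulein libraries on both axes; in epidermis Acetone 11 and 12 are highest in macrophage markers (724 and 1053 CPM), and DNFB 13 is highest in cathepsins (953 CPM) at 273 CPM of markers.

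Markers of other cell types differed too. The 7 Langerhans and dendritic cell markers summed to 11.8 to 39.8 CPM in PBS and 70.7 to 389 in Caerulein, without overlap, and the 3 of them that were tested, all class II genes, rose. These class II genes made up most of the sum in Caerulein, with means of 119 (H2-Ab1), 53.5 (H2-Aa) and 39.5 CPM (H2-Eb1). Cd207 had no count in PBS or Caerulein, and Batf3 none in PBS. In epidermis the 7 markers summed to 275 and 638 CPM in Acetone 11 and 12, 21.7 to 93.3 in Acetone 1, 2 and 3, and 57.5 to 126 in DNFB. The 8 duct markers summed to 11.6 to 25.4 CPM in PBS and 49.1 to 348 in Caerulein, also without overlap, and the 2 tested did not pass. The 8 fibroblast markers summed to 142 to 720 CPM in Acetone and 134 to 213 in DNFB, and to 24.6 to 697 in PBS, again with PBS 8 the highest, and 179 to 1662 in Caerulein. Dcn, a matrix proteoglycan, rose in pancreas (log2 fold change 2.77, SE 0.82), the only call among the 6 fibroblast markers tested there. Of 10 acinar markers tested 9 fell, among them the digestive enzyme genes Pnlip (-4.40), Cpa1 (-3.52), Cela3b (-3.40) and Cela1 (-3.40). All 12 acinar markers summed to 7392 to 58444 CPM in PBS and 835 to 8931 in Caerulein. In epidermis S100a8, a neutrophil and stressed keratinocyte gene, rose from 1.596 ± 1.24 to 99.6 ± 111 CPM. It was the only call among the 2 neutrophil markers tested there. The part of these shifts in the cathepsin values was not tested.

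Genes that work with cathepsins were described from lists drawn up with earlier results of these data known. Cd74, the invariant chain that Ctss and Ctsl cleave, rose in pancreas from 13.8 ± 6.62 to 90.9 ± 73.3 CPM (log2 fold change 2.72), the only call among the 3 partner genes tested of 11. The class II genes H2-Ab1 (3.74), H2-Eb1 (3.31) and H2-Aa (2.63) of the dendritic cell list, whose products present the resulting peptides, rose as well. In epidermis Cd74 had a value of -1.75 and H2-Ab1 of -1.16, neither passing the test, with 81.5 ± 111 and 115 ± 154 CPM in Acetone.

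Among 16 cathepsin inhibitors, 14 were in the table, 7 were tested in skin and 2 in pancreas, and none passed. Cst3, the secreted cystatin C, had a value of -1.38 (SE 0.68) in skin and 0.92 (SE 0.65) in pancreas, and Cst6, the cystatin of the cornifying epidermis, 0.13 in skin. Stfa3, a stefin named here after its values were seen, had the value 2.87 (SE 0.69) in skin and did not pass. It belongs to a family of near-identical copies between which reads can be split. The PBS libraries held no count of Stfa3 or 7 other inhibitors.

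The other lysosomal genes gave few calls. Of 34 further hydrolases and cofactors, 18 were tested in skin, with 4 values above and 14 below 0, and 2 in pancreas, both above 0, and none passed. Npc2, the cholesterol-binding protein of the lysosome, had 2.15 (SE 0.72) in pancreas, with an edgeR adjusted p of 0.0547. Of 27 genes of the lysosomal membrane and proton pump, 24 were tested in skin and 5 in pancreas, and none passed. Lamp1, a major membrane glycoprotein, had 1.05 (SE 0.66) in pancreas, Lamp2 had -0.48 (SE 0.52) in skin, and the pump subunit Atp6v0c 0.94 (SE 0.63) in skin. Of 13 sorting and regulatory genes, among them the receptor M6pr with 0.23 and the transcription factor Tfe3 with -0.45, 5 were tested in skin and none passed. Of the 5 other cathepsins, Ctso and Ctsf were tested in skin, at -0.19 and -0.96, and neither passed. Ctse, Ctsg and Ctsw had at most 29, 4 and 22 counts over any group.

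For each of the 8 cathepsins with a mean of at least 10 counts, the genes with the most alike pattern over the 20 libraries were sought by Pearson's correlation of log2 CPM. Ctss was most like Psmb8 (r = 0.93), an immunoproteasome subunit, Ctsz most like H2-D1 (0.93), a class I molecule, and Ctsl most like Tagln2 (0.87). Ctsh was most like Tmsb4x (0.92), an actin-binding peptide abundant in leukocytes, and Ctsb most like Actg1 (0.94), a cytoskeletal actin. Among themselves the 8 gave r of 0.43 to 0.91 over 28 pairs, highest for Ctsa and Ctsb and lowest for Ctsc and Ctsh. All these values share the 4 groups, 2 tissues and the uneven depth of the libraries.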

How the data were processed

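RNA-seq libraries of epidermis (Acetone, DNFB) and pancreas (PBS, Caerulein) were analysed, 5 per group, grouped by the labels. The authors mapped reads to mm10 (GRCm38) with STAR 2.5.3, quantified them with RSEM 1.3.1, and deposited expected counts per gene without normalization. They were rounded before fitting, and genes were named from GENCODE M21, whose transcripts also gave lengths per kb. No source says whether libraries of a group came from separate mice, so p-values measure only the spread between libraries.

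Each tissue was fitted apart with edgeR 4.0.16 in R 4.3.3 (filterByExpr, minimum count 10; TMM; glmQLFTest), and p-values were adjusted over all genes by Benjamini-Hochberg with a threshold of 0.05. Genes below the filter were fitted with the common dispersion and not tested. The code was tested on simulated data with log2 changes of 3. Of the changed genes tested, 97.3% were recovered in skin, 95.0% in pancreas and 18.4% for the difference between tissues. Of 200 changed genes, 112, 121 and 147 were tested, in that order, so the rates leave out those lost to the filter. Every simulated gene had the same dispersion, so the rates do not measure the power on these libraries. The members and lists were chosen with earlier results of these data known. Outside the members, genes named were those past the threshold, at most 4 per list, or else the 2 of highest mean level, plus the 5 other cathepsins and, for each member with a mean of 10 counts, the most correlated genes. Alternatives were DESeq2 1.42.0, other scaling, no filter, label number ranges and leaving out libraries.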

Additional observations from a re-analysis of the deposited data

Results flagged for a closer look

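In 3 of 36 groups of 5 library values a library stood apart from the other 4, its gap to the nearest of them taking up more of the group's log2 range than Dixon's critical value of 0.71 allows. About 1.8 such groups arise by chance. Ctsl in DNFB 13 had 219 CPM against 39.1 to 63.8 in the other DNFB libraries (gap ratio 0.718). Ctss in DNFB 4 had 7.26 CPM against 31.9 to 44.8 (gap ratio 0.807). Ctsa in PBS 8 had 16.1 CPM against 1.94 to 3.52 in the other PBS libraries (gap ratio 0.753).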

How the results depend on the processing

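No paired analysis was possible because no label number is shared by 2 groups. Genes called over all genes, 3 in skin, 115 in pancreas and 22 for the difference between tissues, were few and unstable. They became, in that order, 0, 530 and 0 with library totals alone, 108, 1297 and 1009 without a filter on low counts, 78, 735 and 875 with DESeq2, 0, 6 and 0 in label numbers 1 to 10, and 975, 406 and 1657 in 11 to 20. With the number range as a term they were 12 in skin and 4 for the difference, with satellite-like genes removed 5 and 39, with RLE size factors 37 for the difference, and with all 20 libraries in 1 fit 25 in skin. Chosen after seeing the data, leaving out Acetone 11 and 12 gave 1 in skin and 0 for the difference, and leaving out Caerulein 9 and 18 gave 1268 in pancreas and 1312 for the difference. Leaving out each library in turn gave 0 to 59, 15 to 280 and 0 to 625. The median over all genes tested in pancreas was 0.06 with TMM, 0.19 with RLE and 1.69 with library totals, and for the difference -0.37, -0.93 and -2.32, so changes are relative to these.

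Signs turned in skin and for the difference. Without Acetone 11 and 12, values in skin were 1.21 for Ctsa, 1.42 for Ctsb and 0.35 for Ctsh, and for the difference 0.22 for Ctsc and 1.82 for Ctsd. Label numbers 1 to 10 gave 1.15 for Ctsa, 1.15 for Ctsb and 0.12 for Ctsh in skin and 2.04 for Ctsd in the difference. The number term gave 0.068 for Ctsa and 0.24 for Ctsb. Label numbers 11 to 20, library totals and no filter gave -0.38, -0.19 and -0.080 for Ctsc, -0.47, -0.23 and -0.12 for Ctsd, -0.19, -0.38 and -0.31 for Ctss, and -0.26, -0.49 and -0.35 for Ctsz, and DESeq2 -0.0058 for Ctss. Leaving out each library in turn gave, in skin, -0.63 to 0.044 for Ctsa, -0.65 to 0.18 for Ctsb, -0.0056 to 0.88 for Ctsd, -0.21 to 0.42 for Ctss and -0.16 to 0.53 for Ctsz, and for the difference -2.16 to 0.41 for Ctsd. The cause was not tested. In pancreas the values of the 8 cathepsins other than Ctsk kept their sign in every alternative run. Low depth limits Ctsk, Ctsh, Ctss and Ctsz in PBS, each with 11 counts or fewer in all.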
